A study of Saccharomyces cerevisiae with 15 samples.

Results

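CaCl2 lysate incubation was compared with no treatment in wild-type *Saccharomyces cerevisiae* (budding yeast), using 3 CaCl2 and 3 untreated libraries out of the 15 in the series, over all 6858 positions of the 35S gene. NET-seq, short for native elongating transcript sequencing, maps the 3′ ends of transcripts still bound to their polymerase, in this case immunoprecipitated RNA polymerase I (Pol I). Per the study's methods, the wild-type strain carries an HA-tagged Rpa135 subunit ((His)7-(HA)3-RPA135::TRP1), so every library in the comparison has it. The untreated lysates received no cation, incubation or EDTA. The CaCl2 lysates received 5 mM CaCl2, 2 min at 37 °C and then 5 mM EDTA. An incubated group without a cation was not part of the design, so calcium, the incubation and EDTA cannot be told apart. The study's methods describe a culture of its own for each wild-type replicate but not the CaCl2 lysates, and the GEO labels do not say that the 3 replicates per group are separate cultures, so p-values measure the spread between these libraries, which may be technical.

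Pol I makes a single long precursor that is cut into the 18S, 5.8S and 25S rRNAs. The external transcribed spacers at its ends (ETS1, ETS2) and the internal ones between the rRNAs (ITS1, ITS2) are removed and degraded. Each read gives the position of a transcript's 3′ end, and positions with many reads are generally read as places where Pol I dwells. In the rRNA genes, reads from mature rRNA that came along in the purification add to this signal, so the spacers are the better window on nascent RNA. The gene analysed was RDN37-2 on chromosome XII (R64), 460712 to 467569, minus strand, with position 1 at its 5′ end. RDN37-2 lies in a repeated array and differs at 0 positions from its neighbour RDN37-1, so occupancy is a sum over copies.

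Depth on the 35S gene was 4917851 to 6885171 reads in untreated and 2866044 to 12734068 reads in CaCl2 libraries. The spacers held 106350 to 715110 of those reads per library. Values are CPM, the reads at a position scaled to the same 35S total in every library, so they are relative levels and a lower share in one region goes with a higher share elsewhere. Across the 1504 spacer positions Spearman's rho was 0.978 to 0.986 between untreated libraries and 0.739 to 0.868 between CaCl2 libraries, a description across positions, which are not replicates. Within the CaCl2 group, replicate 3 stood furthest from the others over the spacer positions and had the highest spacer share. Values that rest on replicate 3 are also given without it. In the rRNA genes replicate 2 stood furthest, with rho 0.913 to replicate 1 and 0.897 to replicate 3, against 0.962 between those. The median SD of log2 values at a spacer position was 0.172 among untreated and 0.637 among CaCl2 libraries.

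A pair of stretches of the transcript is given here as RNA, 5′ to 3′, with U as in the deposited table. In the first 100 positions of ETS1 (chromosome XII, 467470 to 467569), capitals mark the 45 positions called lower with CaCl2. In the second, from the T1 terminator to the end of the gene (460712 to 460831), capitals mark the 27 positions called higher.
ETS1 start: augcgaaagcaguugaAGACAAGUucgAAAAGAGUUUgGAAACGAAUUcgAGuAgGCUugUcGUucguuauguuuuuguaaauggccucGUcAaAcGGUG
T1 to gene end: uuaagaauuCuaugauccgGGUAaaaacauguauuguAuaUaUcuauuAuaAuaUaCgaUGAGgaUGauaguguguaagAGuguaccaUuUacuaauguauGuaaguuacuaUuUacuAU

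The first comparison asked where along the 35S gene Pol I occupancy differed after the CaCl2 incubation. Occupancy relative to the 35S total fell across ETS1, the leader between the start site and 18S. It was higher in stretches of 18S and went both ways in stretches of 25S. Of 6845 positions above 0 in at least 3 of the 6 libraries, 2212 were called by limma (32.3%), of which 1099 rose (16.1%) and 1113 fell (16.3%). All libraries of one group lay above all of the other at 3511 positions (51.3%). A call is a Benjamini-Hochberg adjusted p under 0.05 over all positions tested.

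ETS1 had 309 positions called lower and 16 called higher of 696 tested, with a median log2 change of -0.94, against 0.07 over all positions tested. ITS1 had 123 lower and 5 higher of 360, and ITS2 86 lower and 1 higher of 231, with medians of -0.69 and -0.74. The 18S gene went the other way, with 414 higher and 140 lower of 1798 and a median of 0.24. The 25S gene had 606 higher and 399 lower of 3395, with a median of 0.13. Its balance depended on the libraries kept, with 224, 309 and 175 higher and 235, 236 and 207 lower without untreated replicate 1, 2 and 3, and 347 higher and 310 lower without CaCl2 replicate 1. The 18S counts were then 195, 214 and 158 higher and 76, 99 and 72 lower without untreated replicate 1, 2 and 3. The 5.8S gene had 27 higher and 25 lower of 156, and 15, 17 and 12 higher and 18, 17 and 16 lower without untreated replicate 1, 2 and 3. In the spacers together, 549 were lower and 52 higher of 1496. The count of all calls was 1144, 1299 or 1000 without untreated replicate 1, 2 or 3. The spacer count was 381 (362 lower) when untreated replicate 1 was left out, 360 (343 lower) when untreated replicate 3 was, and 946 (881 lower) when CaCl2 replicate 3 was. Across these settings, 211 to 458 positions were lower in ETS1, 68 to 226 in ITS1 and 51 to 136 in ITS2, each lowest without an untreated library and highest without CaCl2 replicate 3.

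As shares of each library's occupancy, ETS1 held 4.31%, 3.99% and 4.40% in the untreated libraries and 1.72%, 1.66% and 2.91% with CaCl2. All 3 CaCl2 libraries lay below all untreated ones, a 2.02-fold difference of the means. The 18S share was 31.4%, 30.0% and 30.3% untreated and 33.6%, 33.5% and 34.3% with CaCl2, again with no overlap. ITS2 also did not overlap, with 1.04% to 1.08% untreated and 0.471% to 0.870% with CaCl2. The shares of ITS1, 5.8S, 25S and ETS2 overlapped between groups. Without the 10 positions after each mature 3′ end, the log2 difference went from -0.57 to -0.99 for ITS1 and from -0.67 to -1.03 for ITS2. Each share without overlap had an exact two-sided permutation p of 0.1, the smallest that 3 against 3 libraries allow, and an adjusted p of 0.233 over the 7 regions, so no share passed the threshold.

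**Figure D1:**
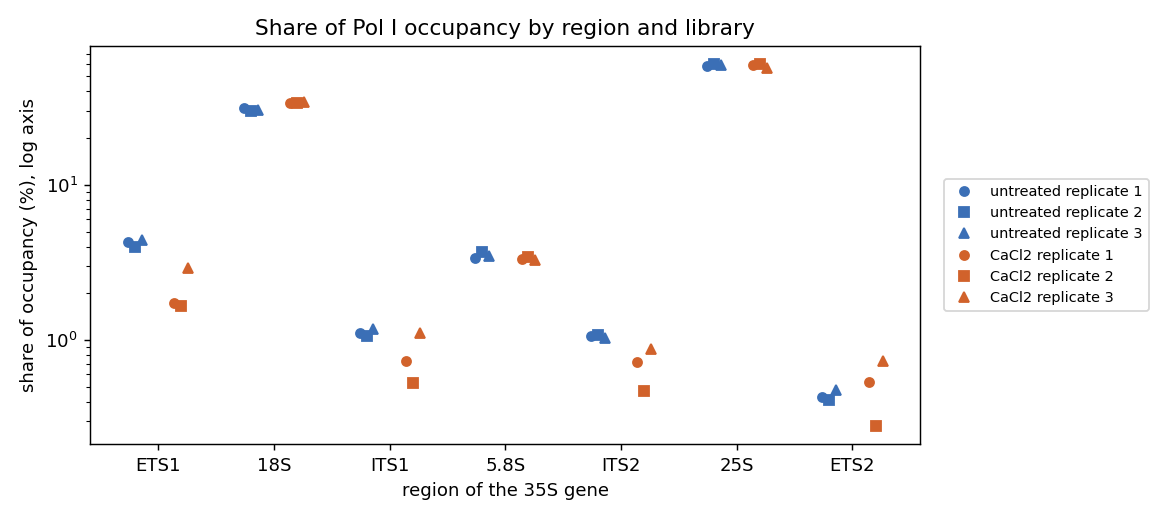
Share of Pol I occupancy in each region of the 35S gene (percent, log axis), 1 point per library with untreated in blue and CaCl2 in orange. The CaCl2 points lie below the untreated ones in ETS1 (1.66% to 2.91% against 3.99% to 4.40%) and above them in 18S.

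In windows of 100 positions, 25 of 69 were called (36.2%), 11 higher and 14 lower (8 and 17 with median-ratio scaling). All 7 windows of ETS1 fell, by log2 values of -0.68 to -1.32, while 1 of the 7, at 101 to 200, was called without CaCl2 replicate 1 or any one untreated library. That window summed to 9463, 8226 and 9241 CPM untreated and 2998, 3640 and 4195 CPM with CaCl2 (log2 -1.32, SE 0.18, limma adjusted p = 0.0024). In 18S, 6 windows rose and 0 fell, and the 3 windows from 1701 to 2000 rose by log2 values of 0.32 to 0.44. The 25S gene had 4 windows higher and 5 lower. Its window at 6101 to 6200 fell from 18298, 19813 and 21644 CPM to 13586, 11015 and 12634 CPM (log2 -0.68, SE 0.09, limma adjusted p = 0.0024). The count of windows called was 13, 10 or 4 without untreated replicate 1, 2 or 3, and 9 without CaCl2 replicate 1. In 18S it was 2 without untreated replicate 3 and 10 without CaCl2 replicate 2, all higher.

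**Figure D2:**
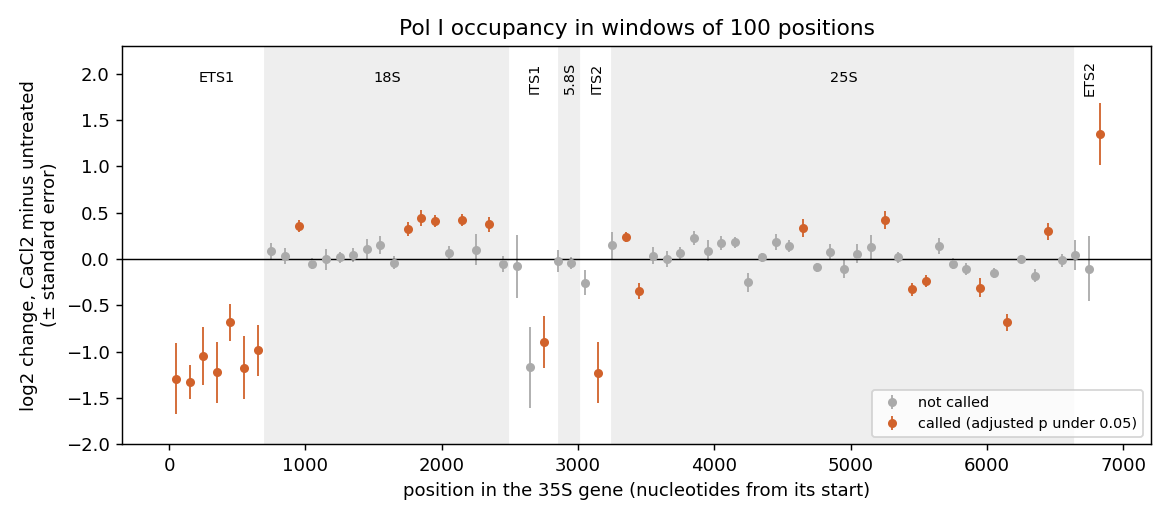
Log2 change of summed CPM (CaCl2 minus untreated, ± standard error) in 69 windows of 100 positions along the 35S gene, with the rRNA genes shaded and called windows in orange. The 7 ETS1 windows lie at -0.68 or lower, and the last window, in ETS2, lies at 1.35.

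At the very start of the transcript few reads ended before position 12 in any of the 6 libraries. From there to position 60 the untreated profile had sharp peaks, the tallest of which were far lower with CaCl2. The tallest, at position 57, went from 375, 306 and 387 CPM to 21.6, 46.3 and 6.83 CPM. Some signal stayed, as at position 58, with 70.4, 61.5 and 73.6 CPM untreated and 18.8, 54.3 and 16.9 CPM with CaCl2. Over the first 60 positions, a span chosen after their values were seen, occupancy summed to 2243, 2095 and 2369 CPM untreated and 227, 483 and 380 CPM with CaCl2, a 6.16-fold difference with no overlap. Of 56 positions tested there, 34 fell (60.7%, against 44.4% in ETS1 and 16.3% over all positions tested) and 0 rose. Without CaCl2 replicate 3, 39 fell, and without any other single library, 28 to 36 fell. Among positions of this span whose last base is adenine, 16 of 20 fell (80.0%), with a median log2 change of -2.64. Over all spacers without the mature ends, 58.5% of adenine positions fell. Positions of the span ending in guanine, uracil or cytosine fell at 8 of 17, 7 of 13 and 3 of 6. Over those spacers the shares were 36.7%, 21.6% and 33.3%.

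Position 19, an adenine in the capitalised run AGACAAGU of the ETS1 sequence above, held 147, 188 and 182 CPM untreated and 2.79, 4.89 and 2.67 CPM with CaCl2. It had 8 to 1038 reads per library and was the largest fall among the named positions (log2 -5.31, SE 0.26, limma adjusted p = 4.5e-05). Position 40, also an adenine after a guanine, held 238, 216 and 250 CPM untreated and 5.23, 8.09 and 8.09 CPM with CaCl2 (log2 -4.88, SE 0.22, limma adjusted p = 3.9e-05). Over positions 61 to 100 the sums overlapped, at 1881, 1908 and 1779 CPM untreated and 801, 1078 and 2528 CPM with CaCl2. CaCl2 replicate 3 lay above all untreated libraries there and the other CaCl2 libraries below. A further named fall lay past the first window of the gene. Position 113, an adenine after a uracil, fell from 476, 260 and 387 CPM to 19.5, 35 and 5.65 CPM (log2 -4.42, SE 0.55, limma adjusted p = 0.0012).

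A few ETS1 positions went against the fall. Position 498, a guanine, rose from 97.7, 82.9 and 86.2 CPM to 307, 415 and 510 CPM, a 4.62-fold rise (log2 2.17, SE 0.19, limma adjusted p = 0.00024). Position 79, a uracil, rose from 7.55, 7.80 and 6.91 CPM to 19.5, 21.6 and 44.3 CPM (log2 1.71, SE 0.34, limma adjusted p = 0.0083). Position 538, a cytosine, held 11.3, 12.9 and 13.4 CPM untreated and 33.1, 32.9 and 211 CPM with CaCl2 (log2 2.21, SE 0.64, limma adjusted p = 0.033), with the log2 change at 1.33 without CaCl2 replicate 3. Its adjusted p was 0.096, 0.084 and 0.10 without untreated replicate 1, 2 and 3, and over its alternatives it ran from 3.7e-05 to 0.10. Position 80, next to position 79, was among the 5 most occupied spacer positions with CaCl2, at 211, 321 and 1079 CPM against 177, 259 and 192 CPM untreated. Its groups overlapped and it was not called (limma adjusted p = 0.16).
Position 498, chromosome XII 467057 to 467087, the position in capitals: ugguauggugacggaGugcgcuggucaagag
Position 113, chromosome XII 467442 to 467472, the position in capitals: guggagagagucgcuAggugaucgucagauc

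**Figure D3:**
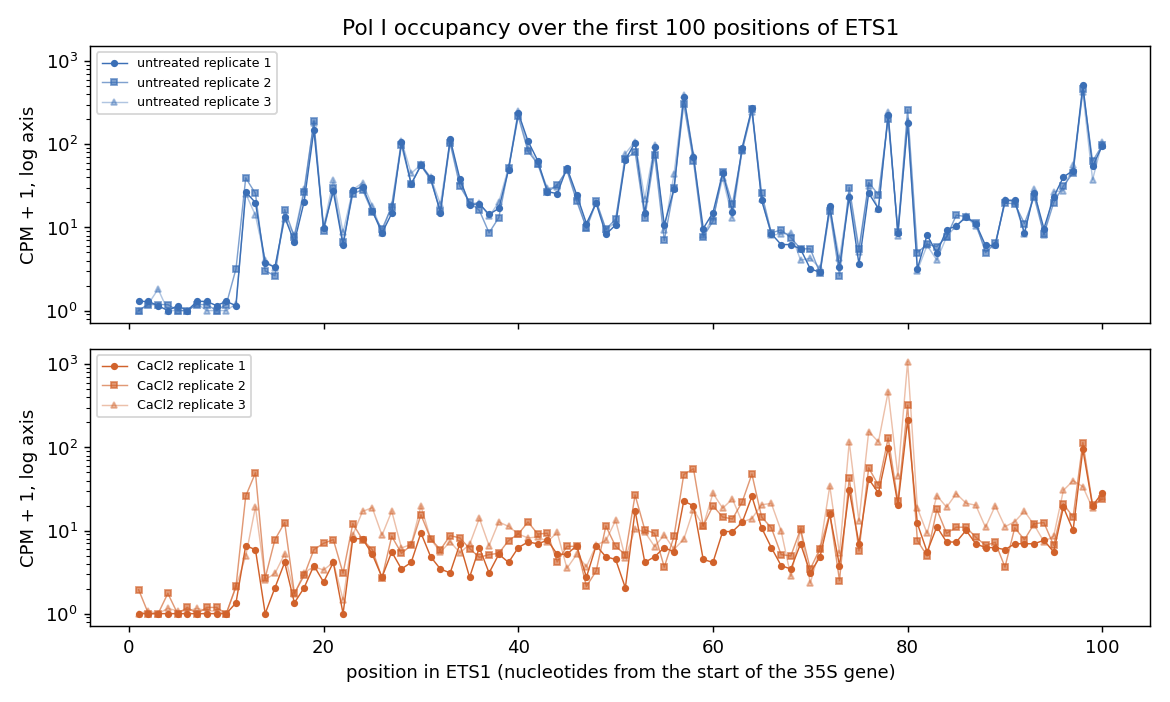
CPM + 1 (log axis) at each of the first 100 positions of ETS1, with the 3 untreated libraries above and the 3 CaCl2 libraries below. The untreated peaks at positions 19 and 40 (147 to 188 and 216 to 250 CPM) are at 2.67 to 8.09 CPM with CaCl2, and position 80 stays high, at 211 to 1079 CPM.

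The next comparison asked which bases lay at the RNA 3′ ends, a feature the level of the spacers does not set. RNA ending in adenine made up less of the spacer signal after CaCl2, and RNA ending in uracil more. Spacer positions within 10 of a mature 3′ end were left out here. Adenine held 40.5%, 39.4% and 40.5% of spacer occupancy untreated and 28.7%, 31.0% and 21.0% with CaCl2. Uracil held 20.3%, 20.9% and 20.3% untreated and 28.0%, 24.4% and 35.9% with CaCl2. Both moved furthest in replicate 3, but neither overlapped in any library. Without replicate 3, the mean differences were -10.2 percentage points for adenine and 5.71 for uracil, against -13.2 and 8.92 with it.

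Guanine ends were slightly more frequent with CaCl2, at 28.9% to 32.7% against 27.3% to 27.7%, and cytosine ends overlapped. The base before the end was guanine in 40.7%, 40.6% and 39.1% untreated and in 35.1%, 38.5% and 30.1% with CaCl2. The pair guanine then adenine ended 17.2% to 17.9% of spacer RNA untreated and 6.68% to 12.7% with CaCl2. The pair uracil then uracil ended 5.26% to 6.08% untreated and 7.93% to 11.5% with CaCl2. The pairs were chosen after the base shares were seen. In the rRNA genes the same shares differed less, with adenine ends at 33.7% to 35.7% untreated and 31.2% to 33.6% with CaCl2. Of 24 base shares, 10 did not overlap, each with an exact two-sided permutation p of 0.1, the smallest possible, and an adjusted p of 0.24.

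**Figure D4:**
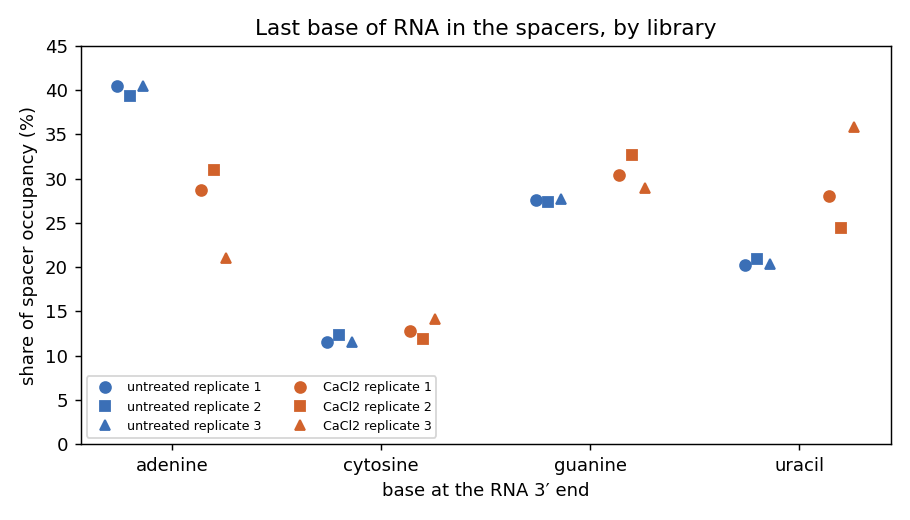
Share of spacer occupancy (percent) by the base at the RNA 3′ end, 1 point per library, without the 10 positions after each mature 3′ end. Adenine is lower in all 3 CaCl2 libraries (21.0% to 31.0% against 39.4% to 40.5%) and uracil is higher (24.4% to 35.9% against 20.3% to 20.9%).

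The same split appeared position by position after each library was scaled to the same spacer sum, which removes the lower level of the spacers. That level was 6.54% to 7.09% of occupancy untreated and 2.93% to 5.61% with CaCl2. Of 1496 spacer positions tested, limma called 513 (34.3%), 205 higher (13.7%) and 308 lower (20.6%), and 254 higher and 247 lower when the spacer sum left out the mature ends. Among those ending in adenine, 167 of 414 were lower and 32 higher, with a median log2 change of -0.63 against -0.01 over all spacer positions. Among those ending in uracil, 94 of 481 were higher and 41 lower, with a median of 0.34. Those ending in guanine, whose share of the signal was slightly higher, were higher at 40 and lower at 72 of 343, with a median of -0.07. For guanine then adenine, 55 of 103 were lower and 8 higher. Without untreated replicate 1, 2 or 3, adenine positions were lower at 117, 120 and 113 and higher at 14, 16 and 13. Uracil positions were then higher at 42, 45 and 36 and lower at 14, 16 and 11, while without CaCl2 replicate 3 they were higher at 107 and lower at 65. By region on this scale, ETS1 had 80 higher and 188 lower of 696, with a median log2 change of -0.20. ITS1 had 37 higher and 60 lower of 360, with a median of -0.0048. ITS2 had 23 higher and 43 lower of 231, with a median of -0.024. In ETS2, 65 were higher and 17 lower of 209, with a median of 0.72.

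The spacers inside the precursor gave further single positions. In ITS1, which separates 18S from 5.8S, position 2698 (cytosine) fell from 63.6, 69.9 and 75.4 CPM to 6.63, 3.20 and 5.34 CPM (log2 -3.58, SE 0.29, limma adjusted p = 0.00018). Position 2605 (cytosine) fell from 132, 128 and 134 CPM to 15.4, 12.8 and 9.97 CPM, and position 2544 (adenine) from 67.4, 55.7 and 69.1 CPM to 9.77, 5.83 and 5.42 CPM. Away from the mature end, the only ITS1 rise named was at 2725 (uracil), from 11.5, 11.6 and 10.2 CPM to 15.4, 46.8 and 70.5 CPM (log2 1.66, SE 0.49, limma adjusted p = 0.034), with the log2 change at 1.21 without CaCl2 replicate 3. Its adjusted p was 0.067 without CaCl2 replicate 2 and 0.093, 0.087 and 0.12 without untreated replicate 1, 2 and 3, in a range over its alternatives of 0.00043 to 0.12. In ITS2, between 5.8S and 25S, the 3 falls named were at 3221, 3241 and 3150. Position 3221 (adenine) fell from 264, 211 and 267 CPM to 44.3, 29.7 and 17.0 CPM (log2 -3.08, SE 0.31, limma adjusted p = 0.00046). The others fell by log2 values of -3.04 and -2.98. All 3 had no overlap between groups, which the rule for naming positions required.

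At the first positions after the mature 18S and 25S ends the direction turned. Of the 30 positions just after the mature ends, 8 were called higher (26.7%, against 16.1% over all positions tested) and 1 lower. Together these calls made up 30.0%, against 32.3% over all positions tested. The median log2 change of the 30 was 0.06, against 0.07 over all positions tested and -0.70 over all spacer positions tested. Groups did not overlap at 36.7% of the 30, against 51.3% of all. All 15 libraries were at 0 over 3 positions at each mature 3′ end, and the positions just after them are given here with the 3 positions at 0 in capitals, since the largest rise of the comparison lay there. The 18S end is at chromosome XII 465049 to 465081, the 5.8S end at 464530 to 464562 and the 25S end at 460901 to 460933.
18S end into ITS1: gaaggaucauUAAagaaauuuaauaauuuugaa
5.8S end into ITS2: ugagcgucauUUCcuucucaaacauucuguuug
25S end into ETS2: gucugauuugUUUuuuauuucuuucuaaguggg

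The 10 positions after the 18S end summed to 244, 232 and 264 CPM untreated and 2910, 1049 and 2293 CPM with CaCl2, a log2 difference of 2.96 with no overlap. Position 2503 (guanine), the second after that stretch, rose from 29.5, 24.9 and 31.1 CPM to 1441, 515 and 1118 CPM, a 36.0-fold rise (log2 5.00, SE 0.34, limma adjusted p = 0.00012). The called rises after the 18S end were at 2502 to 2505. Position 2511 was called lower (log2 -1.68, SE 0.40, limma adjusted p = 0.016), a call lost without any one untreated library. After the 25S end the sums were 705, 701 and 811 CPM untreated and 2023, 1176 and 1764 CPM with CaCl2. Position 6650 (uracil) there rose from 156, 167 and 156 CPM to 1125, 736 and 882 CPM (log2 2.49, SE 0.17, limma adjusted p = 0.00012). The called rises after the 25S end were at 6650 to 6652. Positions 6654 to 6659 had log2 values of -0.09 to -0.94, none of them called. The 5.8S end differed from both, since its sums of 2556, 2882 and 2529 CPM untreated overlapped with 3530, 2020 and 2819 CPM with CaCl2. Position 3021, the first after it, rose by a log2 value of 0.79 (SE 0.20, limma adjusted p = 0.020). Its adjusted p was 0.071 with untreated replicate 1 left out, 0.090 with untreated replicate 3 left out and 0.053 with CaCl2 replicate 1 left out, in a range over its alternatives of 0.00092 to 0.090.

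These 30 positions held 5.07%, 5.83% and 5.08% of all spacer occupancy untreated and 22.8%, 14.5% and 12.2% with CaCl2. The most occupied 2.5% of spacer positions held 26.2% to 27.5% untreated and 31.3% to 42.4% with CaCl2. That share counts these 30 positions too and was not computed without them, so it is not a separate result. Of the 38 most occupied spacer positions by each group's mean, 19 were shared, which is 50% of each list. The 30 positions gave 6 of the 38 untreated and 12 of the 38 CaCl2 positions. The exact two-sided permutation p of both shares was 0.1, the smallest possible, with an adjusted p of 0.117 over 7 spacer measures.

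Inside the rRNA genes, several of the largest changes lay at the first bases of a mature rRNA. Position 702, the second base of 18S, fell from 396, 328 and 375 CPM to 76.8, 47.4 and 20.8 CPM (log2 -3.07, SE 0.39, limma adjusted p = 0.0013). Position 2864, the third base of 5.8S, rose from 7.41, 6.90 and 11 CPM to 100.1, 37.0 and 67.7 CPM (log2 2.79, SE 0.38, limma adjusted p = 0.0016). In 25S, the second base (3253) fell from 27.3, 33.4 and 32.7 CPM to 4.88, 4.33 and 5.18 CPM, while the fourth base (3255) rose from 14.5, 11.6 and 13.2 CPM to 64.5, 44.9 and 50.6 CPM. The largest 18S rise was internal, at 1767 (cytosine), from 43.9, 47.4 and 38.2 CPM to 212, 269 and 241 CPM, a 5.58-fold rise (log2 2.45, SE 0.16, limma adjusted p = 0.00011). The largest 5.8S fall, at 3013, was from 275, 338 and 318 CPM to 102, 120 and 136 CPM.
Position 1767, chromosome XII 465788 to 465818, the position in capitals: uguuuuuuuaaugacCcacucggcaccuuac

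The last comparison concerned ETS2, the 3′ spacer, where Rnt1, an RNase III, cuts the transcript and where the T1 terminator (chromosome XII, 460831) lies. Up to T1, 30 of 90 positions fell and 3 rose, the latter all within the 10 positions after the 25S end. The falls made up 33.3%, near the 36.7% over all spacer positions tested (16.3% over all positions tested). The summed signal of the Rnt1 stretch, at 850, 785 and 850 CPM untreated and 502, 227 and 1006 CPM with CaCl2, overlapped between groups. After T1, 27 of 119 positions rose (22.7%, against 16.1% over all positions tested) and 1 fell. Position 6680 (adenine), inside the stretch the deposited table marks as cut by Rnt1, fell from 161, 145 and 156 CPM to 10.5, 6.96 and 5.97 CPM (log2 -4.17, SE 0.24, limma adjusted p = 9.4e-05). Position 6700 (adenine), just after that stretch, fell from 24.8, 21.1 and 23.8 CPM to 0.698, 1.13 and 2.43 CPM, with as few as 2 reads in a library. Both are adenines after a guanine. Position 6738, the base before T1, fell by a log2 value of -1.67 (SE 0.38, limma adjusted p = 0.014) and its adjusted p was 0.073 without untreated replicate 3, in a range over its alternatives of 0.00014 to 0.073.
Position 6680, chromosome XII 460875 to 460905, the position in capitals: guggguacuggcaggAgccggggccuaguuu

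Past T1, occupancy summed to 327, 289 and 344 CPM untreated and 589, 674 and 1021 CPM with CaCl2, a 2.38-fold difference of the means with no overlap. These sums came from 1594 to 2249 untreated reads and 1687 to 13001 CaCl2 reads per library. Over the 41 positions up to and including T1, by contrast, the sums were 633, 566 and 691 CPM untreated and 241, 229 and 477 CPM with CaCl2. Past-T1 signal was 7.09% to 7.66% of ETS2 occupancy untreated and 10.9% to 24.2% with CaCl2 (exact two-sided permutation p = 0.1, the smallest possible). Position 6759 (guanine), in the annotated binding site of Reb1/Nsi1, factors that help to stop Pol I, rose from 4.79, 4.54 and 7.32 CPM to 24.4, 19.6 and 81.0 CPM (log2 2.44, SE 0.51, limma adjusted p = 0.0095), with the log2 change at 1.83 without CaCl2 replicate 3 (limma adjusted p = 0.0014). Position 6804 (uracil) went from 2.76, 0.726 and 3.05 CPM to 5.23, 13.5 and 69.5 CPM (log2 2.64, SE 0.81, limma adjusted p = 0.038), with the log2 change at 1.68 without CaCl2 replicate 3. It had 4 to 885 reads per library. Its adjusted p was 0.087, 0.13 and 0.10 without untreated replicate 1, 2 and 3, in a range over its alternatives of 0.00011 to 0.13.

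The rise past T1 also depended on which libraries were kept. Without untreated replicate 1, 2 or 3 the calls past T1 were 6, 7 and 6, all higher, and without CaCl2 replicate 3 they were 36 higher and 7 lower. Up to T1, 54 positions were lower without CaCl2 replicate 3, 19 without CaCl2 replicate 1, and 15, 15 and 10 without untreated replicate 1, 2 and 3. The most occupied spacer position in both groups, 6662 (uracil), lies just before the Rnt1 stretch. It held 1012, 992 and 1197 CPM untreated and 1299, 299 and 1983 CPM with CaCl2, and was not called (log2 -0.21, limma adjusted p = 0.81).

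**Figure D5:**
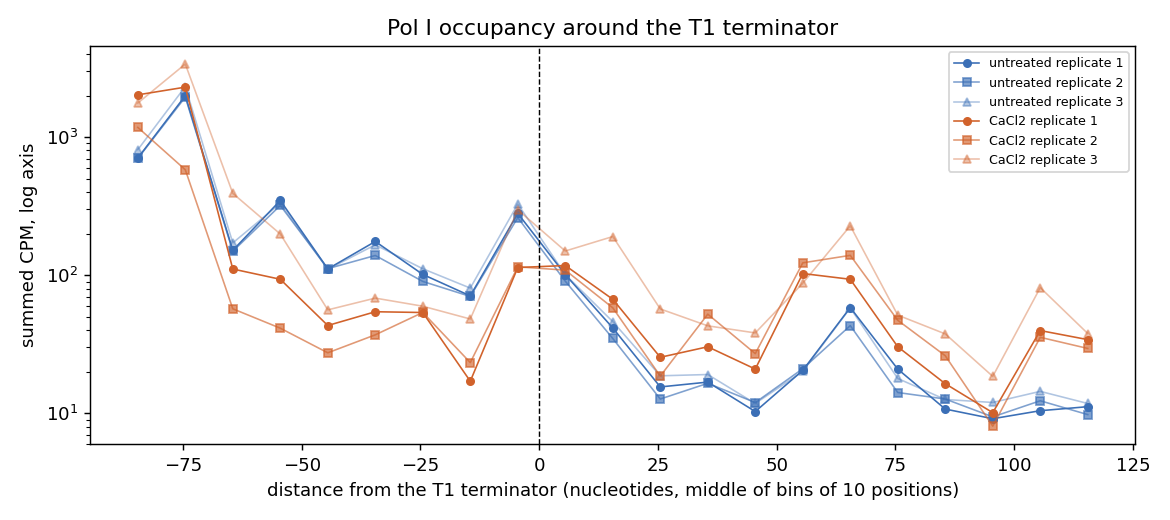
Summed CPM (log axis) in bins of 10 positions from the start of ETS2 to the end of the gene, by distance from T1 (dashed line), 1 line per library; the first bin is the 10 positions after the 25S end and the last holds 9 positions. CaCl2 libraries sum to 229 to 477 CPM over T1 and the 40 positions before it, against 566 to 691 CPM untreated, and to 589 to 1021 CPM past T1 against 289 to 344 CPM.

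Levels in other lysates of the series are given for scale, with no comparison made. Position 19 held 2.91 ± 0.0584 CPM (SD, n = 3) with CaCl2 + MNase, which had the same CaCl2 and incubation, and 0.188 ± 0.177 CPM (SD, n = 3) with MnCl2. Adenine ended 20.4% to 31.2% of spacer RNA with CaCl2 + MNase and 33.3% to 36.4% with MnCl2. Position 2503 held 1440 ± 318 CPM (SD, n = 3) with CaCl2 + MNase and 855 ± 213 CPM (SD, n = 3) with MnCl2. Past-T1 signal was 0.0738% to 0.106% of occupancy with CaCl2 + MNase, beside 0.0588% to 0.102% with CaCl2 alone, and 0.00134% to 0.00163% with MnCl2 and 0.0289% to 0.0344% untreated.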

How the data were processed

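NET-seq libraries of untreated and CaCl2-treated wild-type yeast lysates (3 each) were analysed. Per the labels and the study's methods, the authors removed UMI duplicates with fqtrim, trimmed with cutadapt (3.4), aligned with STAR (2.7.1a) to R64 and counted 3′ ends with BEDTools (2.28.0). The deposited values are CPM per library over the 35S gene up to T1, computed by the authors; the deposited base matched R64 at 6858 of 6858 positions. Reads were recovered from CPM (99.8% to 100.0% of values whole, within 0.1 of a read), less surely for CaCl2 replicate 3. Counting uncertainty of a position follows from its reads. The authors' ratio and p-value columns were not used.

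Positions above 0 in at least 3 libraries were tested with limma (3.58.1, R 4.3.3, trend) on log2(CPM + 1), a scale that understates changes at low positions, with Benjamini-Hochberg adjustment. Library shares had exact two-sided permutation tests over 20 assignments. The limma fit per position was checked on simulated data drawn with the same added spread at every position and in both groups. That check does not cover the unequal spread of the real libraries (median SD at a spacer position 0.172 untreated and 0.637 CaCl2). Named positions were the 3 largest called rises and falls in each spacer and the largest of each in each rRNA gene, with a mean of at least 20 CPM, no overlap of groups and more than 10 positions from another named in the same direction, plus the 5 most occupied spacer positions of each group. Members, lists and spans were chosen with earlier results of these data known. Alternatives covered pseudocount, filter, scaling, edgeR (4.0.16) and DESeq2 (1.42.0) on recovered reads, a replicate block and leaving out each library.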

Additional observations from a re-analysis of the deposited data

How the results depend on the processing

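Of 459 alternatives over the 27 positions named for their change, 442 kept the call, 17 lost it and 0 reversed, and the losses fell on 5 positions. Since these positions were picked for large called changes in the same libraries, kept calls were favoured by that choice. Leaving out one library gave 1000 to 2861 positions called, 360 to 946 in the spacers, 640 to 2236 in the rRNA genes, 251 to 649 after scaling to the spacer sum and 4 to 37 windows. Windows of 50 positions gave 52 calls, 22 higher and 30 lower. All 15 libraries in one fit called 2538 rRNA gene positions (main 1611). On recovered reads, edgeR called 1037 positions higher and 1093 lower, and DESeq2 1177 and 1306. The log2 difference of the ETS2 share was 0.13, and turned to -0.0184 up to T1, to -0.22 without the mature ends and to -0.0175 without each library's 10 highest positions, with a range of -0.17 to 0.52 when one library was left out. That of the 25S share was -0.0079, with a range of -0.025 to 0.016. The mean position within ETS2 differed by 3.49 nucleotides, with a range of -1.65 to 7.97. The replicate numbers did not pair the samples: same-numbered deviations correlated at 0.056, -0.083 and 0.079. A replicate block gave 1793 positions called (826 higher, 967 lower), 560 in the spacers, 1233 in the rRNA genes, 506 after scaling to the spacer sum and 26 windows. Depth limits low positions most: 3 reads were worth 0.236 to 1.05 CPM. The causes of these changes were not tested.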
